A study of Mus musculus with 4 samples.

Results

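The tetraspanin transcripts Cd9, Cd37, Cd53, Cd63, Cd81, Cd82 and Cd151 were followed by name in myeloid cells sorted one by one from mouse corpus callosum. All 7 genes were listed in each of the 4 count tables, among 16342 genes listed in any of them, and all 7 passed the low-count filter of every test below. The cells came from male C57BL/6 mice aged 13 weeks, and live nucleated single cells were sorted on CD11b, an integrin chain of myeloid cells. In 2 libraries (week 0, replicates 1 and 2) the mice were not treated, and in 2 libraries (week 5, replicates 1 and 2) they had received cuprizone, a copper chelator that kills oligodendrocytes and strips myelin. The labels give no dose and do not say whether the libraries were separate animals. A p-value between the weeks reflects only how far the sampled libraries scatter, a scatter that may be technical. The p-values along the disease-associated score below come from groups of cells cut from the same 2 libraries and do not measure that scatter.

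Tetraspanins are small proteins that cross the membrane repeatedly and gather integrins, immunoglobulin-like proteins and proteases into membrane domains. Cd9, Cd81, Cd82 and Cd151 act mainly at the cell surface, Cd63 sits largely on late endosomes, lysosomes and the vesicles that arise from them, and Cd37 and Cd53 are largely restricted to leukocytes. Cd9 and Cd63 transcripts are known to be raised in disease-associated microglia, the phagocytic and lipid-handling state that appears around damaged myelin and amyloid. The sections below ask how the family differed between the weeks and between cells with little and much of that state.

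The tables held 2415001 to 6559032 unique molecular identifiers (UMIs, each marking 1 captured RNA molecule) over 1000 barcodes each, and 3707 of 4000 barcodes were kept. Week 0 replicate 1 stood apart as shallow, with a median of 1527 UMIs per kept cell and 1.81% ribosomal-protein UMIs, against medians of 2496 to 6134 UMIs and 5.23% to 11.2% in the other libraries. Microglia-like cells made up 97.4% and 99.1% of kept cells at week 0 and 94.7% and 93.5% at week 5. All 15 microglia markers were detected in the microglia-like cells of every library. Libraries shared 6 cell barcodes.

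Promoter windows are shown for Cd9 and Cd63, the members that differed most between cells, and for Cd81, which did not pass a test in any of the 4 comparisons. The windows are RefSeq sequences (build GRCm38.p6) from 250 bases before to 50 bases after the annotated start, 5′ to 3′ on the gene's strand. Capitals mark GC boxes, spelled GGGCGG and searched on both strands, the element bound by Sp1-type factors.
Cd9: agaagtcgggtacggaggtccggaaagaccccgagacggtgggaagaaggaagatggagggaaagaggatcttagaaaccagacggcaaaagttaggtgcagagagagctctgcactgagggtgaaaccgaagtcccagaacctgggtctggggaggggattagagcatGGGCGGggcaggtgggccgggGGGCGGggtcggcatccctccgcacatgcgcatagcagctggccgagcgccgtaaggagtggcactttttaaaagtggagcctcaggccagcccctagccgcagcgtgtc
Cd63: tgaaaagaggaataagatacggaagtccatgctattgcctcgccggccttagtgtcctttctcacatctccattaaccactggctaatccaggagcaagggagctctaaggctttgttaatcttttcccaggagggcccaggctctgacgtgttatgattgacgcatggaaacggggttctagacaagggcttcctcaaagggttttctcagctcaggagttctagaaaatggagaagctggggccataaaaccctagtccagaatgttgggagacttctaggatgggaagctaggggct
Cd81: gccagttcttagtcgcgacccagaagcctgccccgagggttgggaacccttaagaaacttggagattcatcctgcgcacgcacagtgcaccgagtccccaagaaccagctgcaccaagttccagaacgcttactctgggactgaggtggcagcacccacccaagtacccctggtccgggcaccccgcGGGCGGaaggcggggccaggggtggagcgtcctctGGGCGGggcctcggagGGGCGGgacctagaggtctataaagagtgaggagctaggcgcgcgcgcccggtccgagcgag
These lie at chr6:125494711-125495010 (minus strand), chr10:128909095-128909394 (plus strand) and chr7:143052500-143052799 (plus strand). The Cd9 window held 2 GC boxes at 61.3% GC and the Cd81 window held 3 at 65.7% GC, whereas the Cd63 window held none at 49.3% GC. A GC box was present in 35.6% of 32817 promoter windows of the same length, whose median GC content was 52.7%. The palindromic E-box CACGTG, read by MiT/TFE factors (7.15% of windows), the AP-1 element TGANTCA (7.81%) and the PU.1-like element GAGGAAGT (3.2%) were not found in these 3 windows on either strand. The Cd63 window lies inside the gene as GENCODE draws it rather than at its first base, so its letters describe the RefSeq start alone.

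In GENCODE M21 (GRCm38), Cd9 occupies 125460266 to 125494791 of chromosome 6, Cd63 128900989 to 128912822 of chromosome 10 and Cd81 143052739 to 143067934 of chromosome 7; all are protein-coding. Several members overlap genes on the opposite strand, and the sources used here do not state whether counting used strand. The overlapping genes listed in the tables were small beside their partners for Cd9 (Gm28809 with 52 UMIs and Gm26728 with 9, against 20235 for Cd9), Cd81 (R74862 with 273 against 31011) and Cd37 (Tead2 with 86 against 8569). For Cd151 the overlapping Gm10575 held 235 UMIs against 787, so Cd151 is the least certain of the members in this respect. No overlapping gene is annotated for Cd63 or Cd53.

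Between the weeks, Cd63 and Cd9 were higher at week 5 in both libraries, Cd37 was lower in both, and the levels of Cd81, Cd53, Cd82 and Cd151 overlapped. Levels are CPM, UMIs summed over cells and scaled to the library's effective UMI total, and the main comparison took all kept cells so that no cell name decided which cells entered. Within microglia-like cells the same order held and Cd63 was the only member that passed the test. In summed cells, more cells with a transcript and more transcript per cell cannot be told apart.

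Cd63, the late endosomal and lysosomal member, stood at 363 and 314 CPM in the week 0 libraries and at 1549 and 683 CPM in the week 5 libraries over all kept cells. Both week 5 libraries lay above both week 0 libraries, with week 5 replicate 1 more than 2 times replicate 2. The log2 fold change was 1.72 (SE 0.41), with an adjusted p of 0.0594 in edgeR's quasi-likelihood test, so the difference did not pass the threshold of 0.05. Without week 5 replicate 2 it was 2.24 and passed. In microglia-like cells alone the levels were 339, 316, 1603 and 701 CPM in the same order. There the log2 fold change was 1.82 (SE 0.40, 95% interval 0.93 to 2.70) and the adjusted p was 0.0326 by edgeR. That call was lost without week 0 replicate 1 (adjusted p = 0.177, edgeR), without week 0 replicate 2 (0.305), and when each cell was thinned to 1000 UMIs (0.0603, log2 fold change 1.31). Without week 5 replicate 1 the log2 fold change was 1.10, and without week 5 replicate 2 it was 2.34; both passed.

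Cd9, a surface partner of integrins and of the immunoglobulin-like protein Igsf8, stood at 736 and 806 CPM at week 0 and at 1954 and 1183 CPM at week 5 over all kept cells. The groups did not overlap, and week 5 replicate 1 was again the highest. The log2 fold change of 1.02 (SE 0.36) had an adjusted p of 0.218 by edgeR. In microglia-like cells the levels were 768, 809.6, 2054 and 1253 CPM, the log2 fold change was 1.07 (SE 0.37, 95% interval 0.25 to 1.88) and the adjusted p was 0.19 by edgeR. Cd9 passed by edgeR only when week 5 replicate 2 was left out (log2 fold change 1.43, adjusted p = 0.000975 in microglia-like cells), and by DESeq2 with all libraries (adjusted p = 0.0059).

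Cd37, a leukocyte tetraspanin, went the other way in level. Microglia-like cells held 571 and 694 CPM without treatment, and 408 and 548 CPM after it. Both week 5 libraries lay below both week 0 libraries, but the gap between 571 and 548 CPM was smaller than the spread within either week. The log2 fold change was -0.41 (SE 0.30, 95% interval -1.08 to 0.26) with an adjusted p of 0.685 by edgeR.

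Cd81, a surface tetraspanin best known as a B-cell co-receptor subunit, read 1718 and 2149 CPM in the untreated libraries and 2038 and 1899 CPM after cuprizone (microglia-like cells). Cd53, the other leukocyte-restricted member, stood at 485 and 520.0 CPM against 568 and 469 CPM. Both overlapped between weeks, with log2 fold changes of 0.03 (95% interval -0.79 to 0.84) and 0.04 (-0.59 to 0.68), so that differences of these sizes in either direction were within the error; both signs turned under scaling to library size alone (-0.20 and -0.20). Cd82, known as a metastasis suppressor, ranged from 66.4 to 83.0 CPM over the 4 libraries, and Cd151, a partner of laminin-binding integrins, from 47.5 to 53.4 CPM. Their log2 fold changes were -0.06 and -0.06, with intervals of -0.54 to 0.41 and -0.52 to 0.40.

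Over all kept cells none of the 7 members was called at an adjusted p under 0.05 by edgeR, where 2.69% of 11247 genes were called (2.44% upward, 0.249% downward), and 2 members (Cd9 and Cd63) had an unadjusted p under 0.05, as had 1545 of all genes. DESeq2 called Cd9 and Cd63. In microglia-like cells 1 of 7 was called, upward, where 3.32% of 11010 genes were called in either direction, 3% upward and 0.318% downward. Scaling to library size alone gave 291 upward and 89 downward calls in place of 274 and 28 over all kept cells, and 330 and 118 in place of 330 and 35 in microglia-like cells. The upward share thus went from 90.7% to 76.6% and from 90.4% to 73.7% through more downward calls; the median of all genes was -0.24 and -0.25. The count of members whose groups did not overlap was 2 above and 1 below, against 21% and 22.2% of all genes over all kept cells and 20.6% and 21.8% in microglia-like cells. The members' median log2 fold change was 0.03 in microglia-like cells, beside -0.01 over all genes tested.

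**Figure D1:**
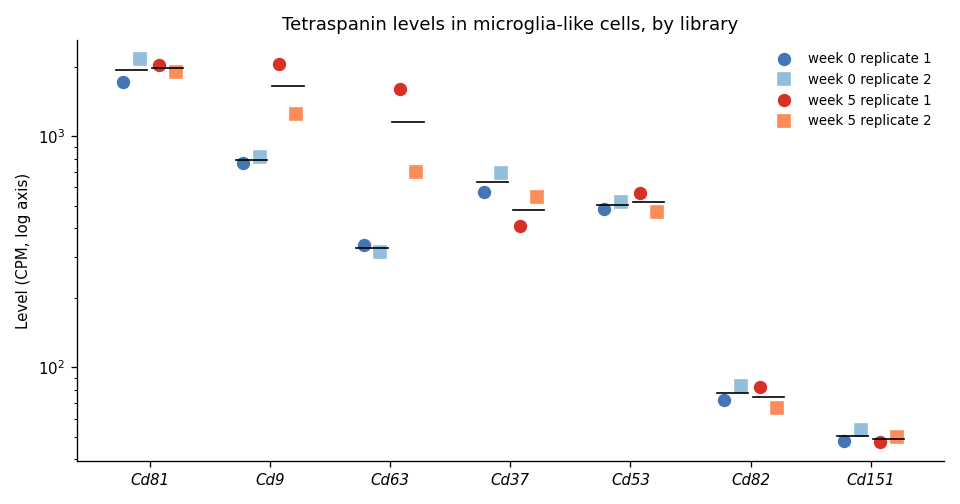
Level of each tetraspanin transcript (CPM, log axis) in microglia-like cells, with 1 point per library and a black line at the mean of each week (2 libraries). Cd63 and Cd9 lie higher in both week 5 libraries (Cd63 1603 and 701 CPM against 339 and 316), Cd37 lies lower in both, and the other members overlap.

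Which cells of the class were present differed between the weeks and also between libraries of the same week. The Cst3-led cluster held 150 and 389 cells at week 0 and 40 and 22 at week 5. The Camk2n1-led cluster held 44 and 339 against 20 and 63, so its counts overlapped between the weeks. The Gm11808-led cluster held 19 and 16 cells at week 0 and 327 and 251 at week 5, and the Apoc1-led cluster 1 and 0 against 193 and 40. The shallow Gm43221-led cluster (median 1274 UMIs) held 523 and 97 cells at week 0 and 151 and 203 at week 5. The B430010I23Rik-led cluster (median 1127 UMIs) held 153 and 47 against 56 and 158. Their Cd63 (medians over libraries of 254 and 295 CPM) and Cd9 (585 and 507 CPM) were the lowest among microglia-like clusters. The part of this mix was not tested. Without the Apoc1-led cluster the log2 fold change of Cd63 between weeks was 1.06 (adjusted p = 0.0143, edgeR) and that of Cd9 was 0.68 (adjusted p = 0.230). Markers of monocytes in the microglia-like class summed to 8.98 and 10.5 CPM in the week 0 libraries and to 129 and 21.9 CPM in the week 5 libraries, with 2 to 5 of 9 markers at 0 in each library. Fn1 supplied 722 and 35 UMIs of these at week 5. Plac8 had 3 and 5 UMIs at week 0 and 28 and 10 at week 5, and Lyz1 had 0 and 0 against 16 and 1. Ly6c2 had 0 and 1 UMIs at week 5, and Ccr2 had 8 and 29 at week 0 and 14 in each library at week 5. The part of the monocyte markers in the result was not tested. Oligodendrocyte-precursor markers summed to 2.25 and 1.37 CPM at week 0 and to 20.7 and 8.28 CPM at week 5, where Cspg4 had 124 and 19 UMIs. Olig1 had 2 and 1 UMIs at week 0 and 1 and 3 at week 5, and Pdgfra was not among the listed genes. The part of these markers was not tested either. Macrophage markers in the same cells summed to 404 and 267 CPM at week 0 and to 274 and 299 CPM at week 5.

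Within week 5, cells were ordered by a disease-associated score, the mean log level of 20 genes such as Apoe, Spp1, Lpl and Cst7 in cells thinned to 1000 UMIs. No tetraspanin was among the 20. Each library was cut into a low, a middle and a high group of 283 or 284 cells (replicate 1) and 251 cells (replicate 2); the groups are ranges of a continuous score, not cell types. The tests compared high with low groups over 6 sums from 2 libraries, with the library as a block, so they measure differences within these libraries. Cd63 and Cd9 rose steeply from the low to the high group in both libraries, and the other 5 members changed little or unevenly.

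Cd63 read 341, 839 and 2782 CPM in the low, middle and high group of replicate 1, and 177, 414 and 1316 CPM in replicate 2. The high group held 8.16 and 7.44 times the level of the low group, a ratio that was close in libraries whose own Cd63 levels differed more than 2-fold. The log2 fold change was 2.97 (SE 0.19), with an adjusted p of 4.2e-17 by edgeR. It kept its direction and passed the test under every alternative that gave a test, with log2 fold changes of 2.32 to 3.31 over all of them.

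Cd9 read 783, 1402 and 3115 CPM in the low, middle and high group of replicate 1, and 402, 894 and 2142 CPM in replicate 2. The high group held 3.98 and 5.33 times the level of the low group. The log2 fold change was 2.19 (SE 0.18), with an adjusted p of 2.6e-13 by edgeR, and ranged from 1.62 to 2.58 over the alternatives, all in the same direction. Both genes thus kept their order along the score in each library.

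Cd53 read 499, 534 and 584 CPM across the groups of replicate 1, and 306, 505 and 529 CPM in replicate 2. Most of its difference lay in the low group of replicate 2. The log2 fold change of 0.48 (SE 0.18) passed narrowly, with an adjusted p of 0.0429 by edgeR, and the call was lost under 8 of the 11 alternatives with a test. Among cells with at least 2000 UMIs and 3% ribosomal-protein UMIs its log2 fold change was 0.13 (adjusted p = 0.646, edgeR).

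Cd37 read lower in the high group of both libraries, without passing the test. It read 429.6, 403 and 344 CPM from the low to the high group of replicate 1, and 561, 564 and 454 CPM in replicate 2. The high group held 0.80 and 0.81 times the level of the low group, nearly the same ratio in both libraries, and the log2 fold change was -0.31 (SE 0.17, 95% interval -0.66 to 0.04) with an adjusted p of 0.185 by edgeR. It passed with groups set over both libraries together (log2 fold change -0.41, adjusted p = 0.0382, edgeR) and with scaling to library size alone, under which the median of all genes itself shifted to -0.55.

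Cd81 read 1852, 2103 and 1904 CPM across the groups of replicate 1, and 1303, 2030.0 and 2079 CPM in replicate 2. It peaked in the middle group of replicate 1 and was low only in the low group of replicate 2, with a log2 fold change of 0.35 (SE 0.18, 95% interval -0.01 to 0.71) and an adjusted p of 0.142 by edgeR; the sign turned under scaling to library size alone (-0.13). Cd82 read 97.0 and 58.6 CPM in the low and high groups of replicate 1, but 60.2 and 64.0 CPM in the low and high groups of replicate 2. Its log2 fold change of -0.40 had an adjusted p of 0.172 by edgeR; among cells with at least 2000 UMIs and 3% ribosomal-protein UMIs it was -0.72 and passed (adjusted p = 0.00445). It also passed with groups set over both libraries together (-0.50, adjusted p = 0.043, edgeR) and with scaling to library size alone (-0.88, adjusted p = 0.00291), whereas without week 5 replicate 1 it was 0.11. Cd151 ranged from 32.7 to 56.1 CPM over the 6 sums, with a log2 fold change of 0.39 and an adjusted p of 0.242 by edgeR, and -0.10 under scaling to library size alone.

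In this comparison 3 of 7 members were called, all upward, where 28.5% of 9510 genes were called, 16% upward and 12.5% downward. Under scaling to library size alone 16.5% of calls were upward, against 56.3% in the main test. Levels in rising order from the low to the middle to the high group in both libraries were found for Cd9, Cd63 and Cd53, and for 15% of all genes tested. The members' median log2 fold change was 0.39, beside -0.05 over all genes.

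Depth and RNA quality moved with the score. Median UMIs per cell were 4907 in the low and 11106 in the high group of replicate 1, and 1525 and 5024 in replicate 2. Ribosomal-protein UMIs rose from 8.03% to 18.4% and from 1.66% to 11.1%. Restricted to cells with at least 2000 UMIs and 3% ribosomal-protein UMIs, the low and high groups of replicate 2 had medians of 5978 and 5846 UMIs. Those of replicate 1 had 6134 and 12901 UMIs. The ribosomal share of these restricted groups still differed, at 8.43% and 12.7% in replicate 2 and 10.5% and 19.7% in replicate 1. There the log2 fold changes were 2.75 for Cd63 (adjusted p = 1.5e-24, edgeR) and 1.85 for Cd9 (adjusted p = 3.1e-15). Monocyte markers summed to 20.4 and 231 CPM in the low and high groups of replicate 1 and to 14.0 and 35.5 CPM in replicate 2, with Fn1 at 1 and 700 UMIs in the low and high group of replicate 1 and at 2 and 32 in replicate 2. Lyz1 had 0 and 14 UMIs in the low and high group of replicate 1 and 0 and 1 in replicate 2. Plac8 had 14 and 8 in replicate 1 and 0 and 3 in replicate 2, and Ly6c2 had no UMI in either high group. Markers of oligodendrocyte precursors summed to 2.35 and 36.7 CPM in replicate 1 and to 3.11 and 18.2 CPM in replicate 2, with Cspg4 at 2 and 115 UMIs and at 0 and 19. Gpr17 was at 0 in these 4 groups, and Pdgfra was not among the listed genes. Endothelial and mural markers (6 of 9 listed) summed to 21.9 and 78.4 CPM and to 20.2 and 27.2 CPM, with Flt1 at 3 and 235 UMIs and at 0 and 24. Pecam1 went the other way, at 25 and 11 UMIs and at 13 and 9. Cdh5 had 0 and 2 UMIs in replicate 1 and none in replicate 2, and Vtn and Acta2 were at 0. Their part in the result was not tested.

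**Figure D2:**
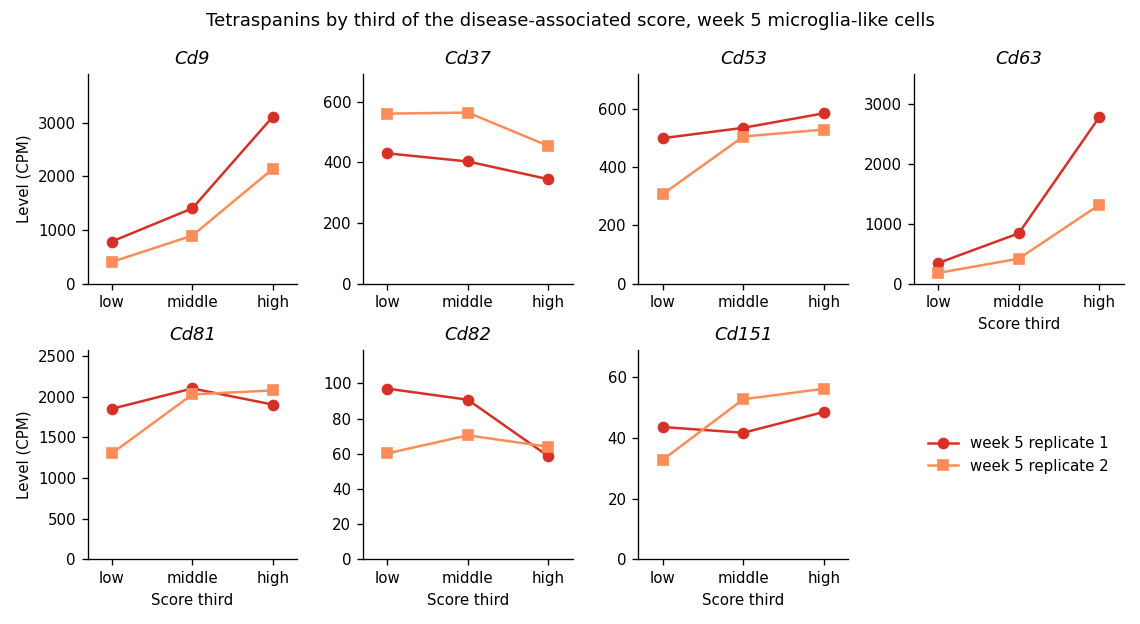
Level (CPM, linear axis from 0) of each member in the low, middle and high group of the disease-associated score, with 1 line per week 5 library. Cd9 and Cd63 climb in both libraries (Cd63 from 341 to 2782 and from 177 to 1316 CPM), Cd37 is lowest in the high group of both, and Cd81 and Cd53 are low mainly in the low group of replicate 2.

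Week 5 cells with the least of the score were then set against all week 0 microglia-like cells. Only the week 5 cells were chosen by score, and within week 0 Cd63 and Cd9 were also higher at high scores. The choice alone can thus lower both genes, so the comparison cannot tell whether low-score week 5 cells equal untreated cells. The median score was 0.79 and 0.54 in the week 5 low groups and 0.61 and 0.72 in the week 0 libraries. Cd63 stood at 393 and 202 CPM in the low groups of week 5 replicates 1 and 2, against 373 and 342 CPM at week 0. Cd9 stood at 901 and 459 CPM, against 846 and 877 CPM. For both genes replicate 1 lay slightly above and replicate 2 clearly below the week 0 libraries, so the groups overlapped.

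None of the 7 members was called in that comparison by edgeR, where 0.391% of 9987 genes were called; none had an unadjusted p under 0.05, as 374 of all genes had. The log2 fold changes were -0.25 for Cd63 (SE 0.33, 95% interval -0.96 to 0.45) and -0.34 for Cd9 (SE 0.36, 95% interval -1.11 to 0.44). Without week 5 replicate 2, whose low group was shallow, they were 0.13 and 0.06; without week 5 replicate 1 they were -0.85 and -0.94. Cd151 was the only member whose groups did not overlap, at 50.1 and 37.3 CPM against 52.7 and 57.9 CPM, an order found in 14.8% of all genes. Its log2 fold change was -0.31 (SE 0.26).

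**Figure D3:**
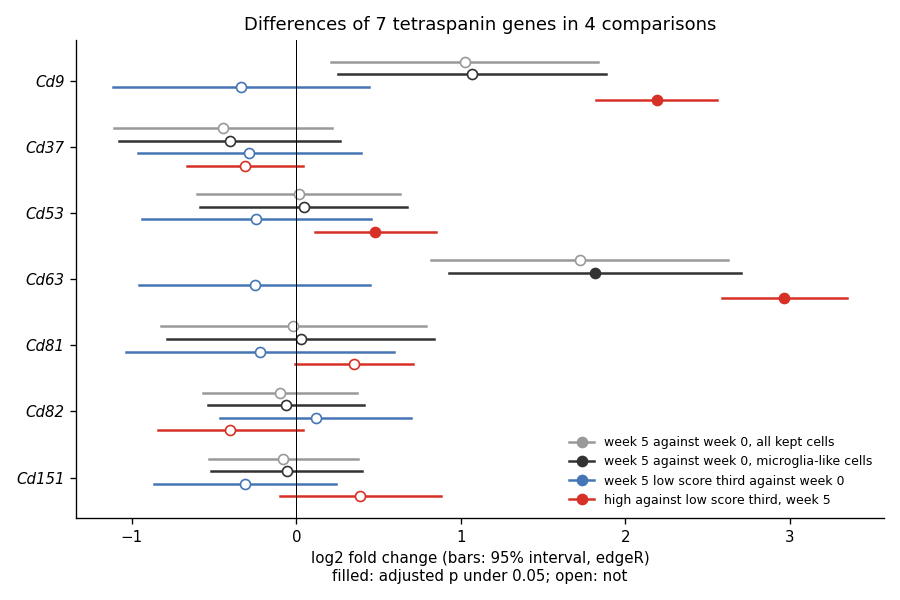
Log2 fold change (x axis) of each member in 4 comparisons, with 95% intervals from edgeR; filled points passed an adjusted p of 0.05 and open points did not. The high against low score group gives the largest values for Cd63 (2.97) and Cd9 (2.19), while the low group of week 5 against week 0 gives values near or below 0 for both.

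Finer steps of the score were then described, in thinned cells of all 4 libraries and with no test. Each library was cut into 5 equal groups. From the lowest to the highest, Cd63 went from 298 to 2112 CPM in week 5 replicate 1 and from 126 to 1633 CPM in replicate 2, rising at each step in both. At week 0, where the score reached only 0.92 and 0.97 in the median cell of the top group, Cd63 went from 158 to 509.9 CPM and from 217 to 497 CPM. Cd9 went from 713 to 2506 and from 238 to 2360.0 CPM at week 5, and from 401 to 1146 and from 753 to 1212 CPM at week 0. Week 5 and week 0 groups of like median score can be set side by side. A like score can come from a different mix of score genes, and the mix was not matched. In the low groups of week 5 replicates 1 and 2, Apoe stood at 5132 and 2037 CPM, against 880 and 370 CPM at week 0. Ctsd, another score gene, stood at 5001 and 3821 CPM, against 5415 and 6422 CPM. Each pair also sets a top group of week 0 against a lower-ranked group of week 5. The second group of week 5 replicate 1 (median score 0.93) held 388 CPM of Cd63 and 835 CPM of Cd9, and the top group of week 0 replicate 2 (0.97) held 497 and 1212 CPM. The middle group of week 5 replicate 2 (0.90) held 360.0 and 867 CPM, and the top group of week 0 replicate 1 (0.92) held 509.9 and 1146 CPM. In both pairs the week 5 group was the lower, but whether this holds at an equal cell state was not tested.

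Cd37 was lower at each step in week 5 replicate 1, from 579 to 253 CPM, and did not rise at any step in replicate 2, from 695 to 487 CPM. It was also lower at each step in week 0 replicate 1, from 855 to 636 CPM, but not in week 0 replicate 2 (807 and 800.0 CPM). Cd81 followed an arch at week 5, with 1684, 1994 and 1306 CPM in the lowest, the middle and the highest group of replicate 1, and 914, 2173 and 1740.0 CPM in replicate 2.

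**Figure D4:**
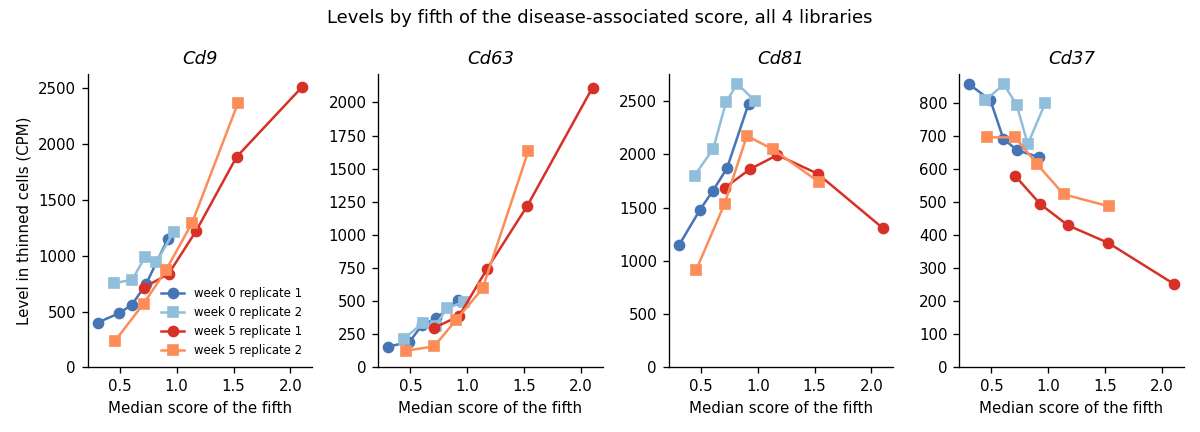
Level (CPM in cells thinned to 1000 UMIs) against the median disease-associated score of each of 5 equal groups of microglia-like cells, with 1 line per library and 5 points per line. Cd9 and Cd63 end higher than they start in all 4 libraries, most so at week 5, Cd81 is highest at middle scores at week 5, and Cd37 ends lowest at high scores in 3 libraries.

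The Cd63 and Cd9 molecules were unevenly spread over cells. The 85 and 75 highest-scoring cells at week 5 (9.99% and 9.96% of cells) held 24.1% and 40.5% of the thinned Cd63 UMIs, and the 75 and 82 highest-scoring cells at week 0 held 19.1% and 16.3%. For Cd9 the shares were 21.0% and 27.2% at week 5 and 18.3% and 15.1% at week 0. The same cells held 4.41% and 7.27% of the Cd37 UMIs at week 5.

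In cells thinned to 1000 UMIs, a Cd63 UMI was found in 24.4% and 28.6% of microglia-like cells at week 0 and in 49.5% and 32.3% at week 5 (exact 95% binomial intervals 21.4 to 27.7, 25.6 to 31.8, 46.1 to 52.9 and 28.9 to 35.7, counting error only). Unthinned, the shares were 38.4%, 61.0%, 76.6% and 55.7%, at median depths of 1500, 3912, 6117 and 2332 UMIs. Cd9 was found in 44.6% and 55.9% of thinned cells at week 0 and in 66.3% and 50.5% at week 5, so its share in week 5 replicate 2 lay between the week 0 libraries although its level was higher. Thinning left out 145, 69, 60 and 102 microglia-like cells under 1000 UMIs. No class was fixed as lacking Cd63 or Cd9, so these shares have no set background; the unnamed S100a6-led cluster gave Cd63 in 0 of 31 thinned cells (exact 95% upper bound 11.2%) and in 12.9% unthinned, at a median of 6114 UMIs. For the leukocyte member Cd37, found in 34.4% to 53.1% of thinned microglia-like cells, the unnamed Ttr-led cluster, with the secreted-protein genes Enpp2, Clu and Ptgds, gave 0 of 22 thinned cells (exact 95% upper bound 15.4%) at a median of 4392 UMIs, and 9.09% unthinned.

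A Cd63 UMI was more frequent in cells that also had a Cd9 UMI. A Cd63 UMI was present in 57.6% and 43.9% of week 5 cells with a Cd9 UMI, and in 33.4% and 20.4% of those without. At week 0 the shares were 31.4% and 32.6% with Cd9, and 18.9% and 23.6% without. Cells with and without Cd37 differed in the other direction at week 5, with a Cd63 UMI in 45.4% and 25.2% of cells with Cd37 and in 51.6% and 37.4% of those without. These shares describe cells of each library, which also differ in score.

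Across clusters of at least 20 cells, Cd9 and Cd63 were highest in the Apoc1-led and Ccl4-led clusters of week 5. Cluster levels are CPM of the cluster's total UMIs, given as a description, since these genes took part in the clustering. The Apoc1-led cluster, whose leading genes include Spp1, Gpnmb and Clec7a, held the most Cd63, at 2068 and 2209 CPM in week 5 replicates 1 and 2. The Ccl4-led cluster, with Ccl3 and Atf3, held 1279 and 1519 CPM. For Cd9 their order was reversed, with 2456 and 2949 CPM in the Ccl4-led cluster and 2136 and 2741 CPM in the Apoc1-led cluster. The cluster led by the interferon-induced genes Ifit3, Rsad2 and Ifit1 held 737 and 492 CPM of Cd63 and 1184 and 1030.2 CPM of Cd9.

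The Cst3-led cluster, which counts P2ry12 among its leading genes, was measured in all 4 libraries. Clusters were built from the expression of cells of both weeks, so like levels across the weeks within a cluster are partly set by the clustering. Its Cd63 level was 467 and 381 CPM in untreated libraries, against 492 and 409 CPM after cuprizone, and its Cd9 level 1051 and 993 CPM against 1252 and 1092 CPM. The weeks overlapped for Cd63, and for Cd9 both week 5 libraries were slightly higher. The shallow Gm43221-led and B430010I23Rik-led clusters (medians of 1274 and 1127 UMIs) and the Camk2n1-led cluster also had at least 20 cells in all 4 libraries. Among these, Cd63 was higher at week 5 in the Gm43221-led cluster (280 and 270 CPM against 213 and 239) and overlapped elsewhere. Cd9 was higher at week 5 in the Camk2n1-led cluster (978 and 897 CPM against 871 and 776). It was lower in the B430010I23Rik-led cluster (461 and 303 against 553 and 751) and overlapped in the Gm43221-led cluster. Among clusters of at least 20 cells Cd81 was highest in the Cst3-led cluster in each library, between 2453 and 2633 CPM in all 4 libraries. Cd37 was lowest among microglia-like clusters in the Apoc1-led cluster, at 221 and 214 CPM.

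Border-associated macrophage-like cells (76 cells, led by H2-Eb1, Mrc1 and Pf4) carried Cd63 without much Cd9. At week 5 they held 982 and 712 CPM of Cd63 but 368 and 256 CPM of Cd9, and 719 and 731 CPM of Cd81, below every microglia-like cluster in these 2 libraries. In week 0 replicate 1, 16 such cells held 92 Cd63 UMIs and 1 Cd9 UMI; the 6 cells of week 0 replicate 2 held 9 Cd63 and 29 Cd9 UMIs. Cd53 was 351 to 412 CPM in these cells over the 4 libraries.

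**Figure D5:**
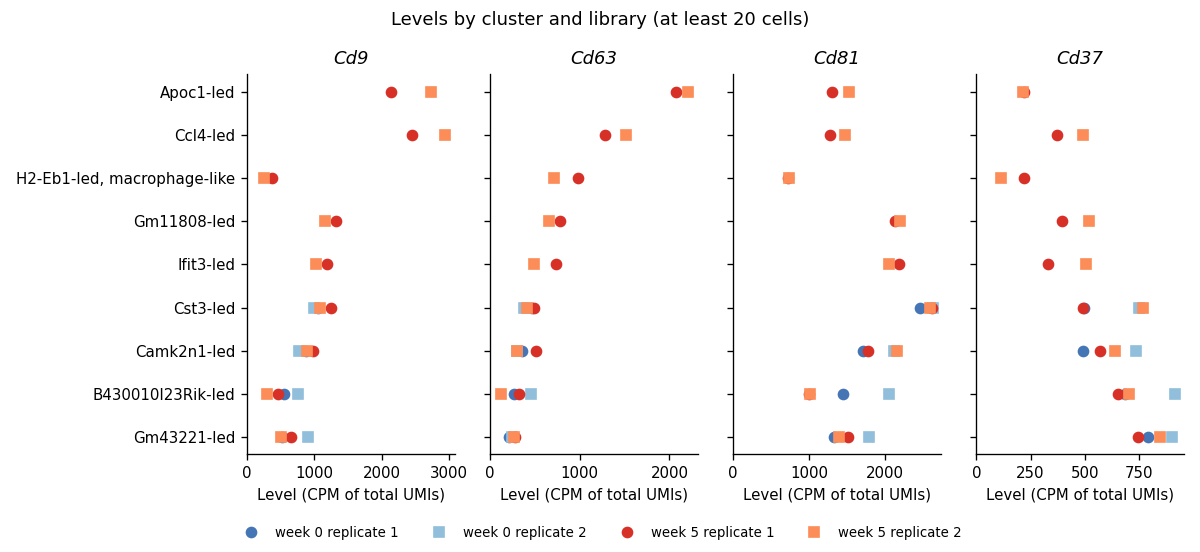
Level (CPM of the cluster's total UMIs) of Cd9, Cd63, Cd81 and Cd37 in clusters with at least 20 cells in a library, named by leading gene and ordered by Cd63, with 1 point per library. The Apoc1-led and Ccl4-led clusters are highest for Cd9 and Cd63, the macrophage-like cluster has Cd63 (982 and 712 CPM) with little Cd9, and the Cst3-led cluster is highest for Cd81.

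Over 24 library-by-cluster sums of microglia-like cells, centred within each library, Cd9 and Cd63 correlated at a Pearson r of 0.93, and Cd37 ran against both (r = -0.84 with Cd63 and -0.76 with Cd9). Among the other members r was 0.84 between Cd53 and Cd81, 0.77 between Cd53 and Cd151, 0.73 between Cd81 and Cd82, 0.68 between Cd81 and Cd151, 0.60 between Cd53 and Cd82 and 0.47 between Cd82 and Cd151. Cd9 and Cd53 stood at 0.58. The sums share libraries, depth and RNA quality, so these values are descriptions. Of 3674 genes with a mean of at least 50 CPM, those most like Cd9 were Cd68, a lysosomal membrane glycoprotein of phagocytes (r = 0.96), and the cathepsins Ctsz and Ctsd. For Cd63 they were Ctsz (r = 0.94), Cd9 and the cathepsin Ctsb; Ctsz, Ctsd and Ctsb are themselves among the score genes. For Cd37 they were Vgll4 (r = 0.96), Arrb1 and Mgat4a, for Cd53 Syf2 (0.95), Cdc42 and Emc7, and for Cd81 Cst3 (0.95), Alox5ap and Rnaset2b. For Cd82 they were Serinc3 (0.88), Cd164 and the microglial fractalkine receptor Cx3cr1, and for Cd151 Tnfrsf1a (0.85), Eif4g2 and Cebpa.

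Other genes of the tetraspanin family were not called between the weeks. Of 24 genes, 18 were listed and 13 tested over all kept cells, with 0 called by edgeR there and 0 of 12 in microglia-like cells. Tspan14, which escorts the protease Adam10, had the highest level, at 151 and 142 CPM against 114 and 127 CPM, untreated against week 5, in the microglia-like class (log2 fold change -0.29, adjusted p = 0.698, edgeR). Along the score at week 5, 1 of 12 rose and 2 fell, a share near that of all genes (16% up and 12.5% down). Upk1b, known as a urothelial uroplakin, fell from 43.5 to 2.64 CPM and from 55.0 to 17.5 CPM (log2 fold change -2.59, adjusted p = 1.3e-07, edgeR). Tspan18 fell from 28.5 to 1.76 CPM and from 30.1 to 10.5 CPM (adjusted p = 3.9e-06). Tspan4, a tetraspanin of migration trails, rose from 77.8 to 131 CPM and from 57.6 to 80.6 CPM (log2 fold change 0.65, adjusted p = 0.0154).

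Surface partners of tetraspanins included genes that rose between the weeks. Of 18 tested surface partners, 2 rose and 0 fell between weeks over all kept cells, Clec7a and Ifitm3, and 4 rose in microglia-like cells. Over all genes tested 2.44% rose and 0.249% fell in the first comparison, and 3% and 0.318% in the second. In the latter Ifitm3, an interferon-induced membrane protein, went from 7.43 and 15.5 CPM to 345 and 165 CPM (log2 fold change 4.40, adjusted p = 0.000223, edgeR). Clec7a, the dectin-1 receptor and a known associate of Cd37, went from 20.6 and 15.1 CPM to 541 and 188 CPM (adjusted p = 0.000486). The adhesion genes Itga4 (1 chain of the VLA-4 integrin) and Cd44 (a hyaluronan receptor) rose from 9 and 6 UMIs in all at week 0 to 93 and 174 at week 5. Itgam, the CD11b chain used for the sort, had the highest level and did not pass (log2 fold change -0.25, adjusted p = 0.825).

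Along the score, 7 of 16 tested partners rose and 1 fell, Clec7a being set aside as a score gene. Those that rose included Ifitm3, Cd44, the integrin chains Itga5 and Itga4 and the lipopolysaccharide co-receptor Cd14; over all genes tested 16% rose and 12.5% fell. Igsf8, the immunoglobulin-like partner of Cd9 and Cd81, was singled out after its values were seen; it went from 46.4 to 78.4 CPM and from 43.2 to 54.3 CPM (log2 fold change 0.59, adjusted p = 0.0452, edgeR). The integrin chain Itgav fell from 120 to 50.2 CPM and from 134 to 86.8 CPM (log2 fold change -0.95, adjusted p = 0.000485), and Itgam did not pass (-0.41, adjusted p = 0.0721). In the low group of week 5 against week 0, Ifitm3 alone was called of 15 tested partners, at 154 and 71.7 CPM against 8.18 and 16.8 CPM (log2 fold change 3.13, adjusted p = 0.000813).

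Of the genes that build multivesicular bodies and vesicles, the compartment of Cd63, 1 of 18 tested rose between weeks over all kept cells and none fell. It was Anxa2, an annexin of endosomal membranes, at 3.53 and 2.10 CPM against 36.5 and 17.8 CPM (log2 fold change 3.36, adjusted p = 0.00404, edgeR). Along the score 7 of 17 rose and 0 fell. Sdcbp, the syntenin adaptor that binds Cd63, went from 215 to 416 CPM and from 164 to 271 CPM (log2 fold change 0.85, adjusted p = 0.000356). Its syndecan ligand Sdc4 went from 10.7 to 35.7 CPM and from 11.8 to 40.3 CPM, and the ESCRT-III subunit Chmp4b from 129 to 295 CPM and from 77.3 to 160 CPM (adjusted p = 5.9e-05 and 1.3e-05). The ESCRT subunit genes Vps28 and Chmp2a also rose, and Vps4b had the highest level among those that did not pass (log2 fold change 0.10, adjusted p = 0.772). Median log2 fold changes along the score were 0.35 for this list and 0.37 for the partners, beside -0.05 for all genes tested, and 28.5% of all genes were called. Under scaling to library size alone the median of all genes was -0.55, and smaller rises such as that of Igsf8 were not described under it.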

How the data were processed

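RNA of single cells was measured in 4 droplet libraries (3′ kit, version 3.1), 2 for each week. The authors deposited raw UMI counts as whole numbers for each gene and barcode, 1000 barcodes a library, with 2415001 to 6559032 UMIs; no source used here says how those barcodes were picked. Per the submitters' processing notes, Cell Ranger 3.0.0, STAR, Seurat 4 and mm10 were used; their roles are not stated.

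Barcodes with fewer than 500 genes or more than 10% mitochondrial UMIs were removed (272), as were 21 doublets marked by scrublet (0.563%). With scanpy 1.11.5, 30 components of 2000 variable genes and 15 neighbours gave 12 Leiden clusters (resolution 1). A cluster took another class's name where that class alone had the most markers, at least 2, among the cluster's 10 leading genes and at least 3 detected; with conflicting markers it stayed unnamed, and the others were called microglia-like, a name held by default. Markers seen in at least 50% of kept cells (Csf3r, Cst3, Stab1 and Trf) were set aside, a rule added after the clusters were seen. Names were rebuilt here and may differ from the study's. Counts were summed per library, since cells are not replicates, and tested with edgeR 4.0.16 in R 4.3.3 (quasi-likelihood, TMM, filterByExpr, Benjamini-Hochberg over all genes tested, called at an adjusted p under 0.05). In 5 simulated sets shaped like the comparison of weeks over all kept cells, 55.2% of planted 2-fold and 99.4% of 4-fold changes were called. Of the calls there, 9.44% were false. In 5 sets shaped like the score comparison, these values were 84.6%, 100% and 4.05%. DESeq2 1.42.0 and limma 3.58.1 (voom), other scalings, filters, cell limits, scores and left-out libraries were alternatives; leaving out the Apoc1-led cluster, or cells under 2000 UMIs or 3% ribosomal UMIs, was chosen after seeing the data. Genes missing from 1 or more tables were set to 0 in them. Shares carry exact binomial 95% intervals, which cover counting error only.

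Named genes were the 7 members and, per other list, up to 6 called genes by adjusted p and the highest gene not called; for likeness, 3 genes per member. The members and lists were chosen with earlier results of these data known.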

Additional observations from a re-analysis of the deposited data

How the results depend on the processing

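Of 406 alternative values, 318 kept their direction and call (counts, within 1.5 times) and 43 changed sign; the cause was not tested. The number of genes called between weeks over all kept cells, 302, was 918 with no gene filter, 184 with cells thinned to 1000 UMIs, 501 with a common limit of 2996 genes per cell, 93 in cells with at least 2000 UMIs and 3% ribosomal UMIs, and 265 to 1341 with a library left out. In microglia-like cells, 365 became 830, 187 and 561 under the first 3 of these and 285 to 1458 with a library left out. Along the score, 2709 became 4301 with library size only, 1192 by DESeq2, 387 with no library block, 1187 from thinned UMIs and 1205 without the Apoc1-led cluster. For the low group against week 0, 39 became 62 with the score lacking Apoe, 25 in thinned cells and 29 to 131 with a library left out.

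Log2 fold changes between weeks over all kept cells passed for Cd9 by DESeq2 (1.04; 0.62 to 1.38 with a library left out) and for Cd63 with library size only (1.45), no gene filter (1.72), DESeq2 (1.74) and the common gene limit (1.43; 1.02 to 2.24 with a library left out). In microglia-like cells Cd9 passed by DESeq2 (1.08; 0.67 to 1.43) and Cd63 did not in thinned cells (1.31; 1.10 to 2.34). In the low group against week 0, leaving out a library gave -0.94 to 0.061 for Cd9 and -0.85 to 0.13 for Cd63.

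Members with values near 0 changed sign. Over all kept cells Cd53 was -0.22 with library size only, -0.11 thinned and -0.091 in the richer cells (-0.13 to 0.19 with a library left out). Cd81 was 0.0040 by limma-voom (-0.20 to 0.18), Cd82 0.0012 thinned and 0.025 under the common limit (-0.25 to 0.072), and Cd151 0.0057 under that limit (-0.18 to 0.031). In microglia-like cells Cd53 was -0.20 with library size only, -0.075 thinned and -0.087 in the richer cells (-0.093 to 0.23). Cd81 was -0.20, -0.12 and -0.028 in the same order and -0.00046 under the common limit (-0.14 to 0.20). Cd82 was 0.090 thinned, 0.050 under the limit and 0.039 without the Apoc1-led cluster (-0.23 to 0.13), and Cd151 0.034 under the limit (-0.14 to 0.028). Along the score Cd81 was -0.13 and Cd151 -0.10 with library size only, and Cd82 0.19 with the score on all UMIs and 0.46 from thinned UMIs (-0.73 to 0.11). In the low group against week 0 Cd53 ranged from -0.68 to 0.061, Cd81 from -0.53 to 0.011 and Cd82 from -0.33 to 0.39 with a library left out, and Cd82 was -0.33 thinned.

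Same-numbered libraries did not deviate together (r = -0.048), and the labels state no pairing, so the main tests used none. This correlation cannot show whether same-numbered libraries were handled together. A replicate block gave 379, 497 and 46 called genes between weeks over all kept cells, in microglia-like cells and for the low group; Cd63 was 1.61 and 1.70 in the first pair of comparisons and Cd9 0.98 and 1.02, and no member's call changed. With 2 libraries a week, the spread between them limits these comparisons.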
